A study of Homo sapiens with 95 samples.

Results

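The response of FAT1 knockout cells to cigarette smoke condensate (CSC) was described from 6 of the 95 wells of the series, 3 exposed to CSC and 3 to the DMSO vehicle. The wells were chosen by their labelled population and chemical. FAT1 had been targeted by CRISPR in AALE, a line of immortalized human bronchial epithelial cells, and the labels and methods did not say whether the population was a clone or a pool. Exposure was to CSC at 24 µg/ml or to DMSO, after the wells had reached confluence, and its duration was not given in the sources used here. The 3 replicate wells of FAT1 cells under benzo[a]pyrene (BaP, 173 µM), a single polycyclic aromatic hydrocarbon of smoke, and the 6 wells of GFP control cells under CSC or DMSO were used for comparison. GFP cells had received the Cas9-EGFP plasmid with no guide RNA. As a second control, 6 wells of cells expressing the HcRed reporter, 3 under CSC and 3 under DMSO, took the place of the GFP wells in 1 alternative. The 3 wells of FAT1 cells under the nitrosamine NNK (490 µM) entered an alternative fit over all 12 FAT1 wells and are otherwise given as levels only. Messenger RNA was counted by 3′ digital gene expression (3′DGE), in which every captured molecule carries a unique molecular identifier (UMI) and only the 3′ end of the transcript is read.

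Chemical and plate row coincided, with DMSO in row B, CSC in row D and BaP in row F for FAT1 cells, and with DMSO in row A and CSC in row C for GFP cells. Exposure and row cannot be told apart in any result given here. The 6 wells held between 1296129 and 1895735 UMIs, with a mean of 1545666 in DMSO wells and 1678907 in CSC wells. Between 48.9% and 52.7% of the 23895 listed genes had at least 1 UMI in a well. Differences between replicates exceeded the sampling of counts in every pair, and were greatest between CSC replicates 1 and 2 (chi-square per degree of freedom 2.61, against 1.19 to 1.94 for the other pairs of the 6 wells). Without CSC replicate 1, the number of genes called between CSC and DMSO was 76 rather than 52.

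Smoke condensate carries many compounds that cells sense through 2 well-known routes. Polycyclic aromatic hydrocarbons bind the aryl hydrocarbon receptor (AHR), which enters the nucleus and switches on cytochrome P450 genes of the CYP1 family at sites called xenobiotic response elements. Electrophiles and oxidants release the transcription factor NRF2 from its repressor KEAP1, and NRF2 then raises genes of glutathione, thioredoxin, quinone and iron handling through antioxidant response elements. FAT1 is a large atypical cadherin of epithelial cells with ties to Hippo signalling.

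Sequence upstream of 5 genes on which the results turn is shown here, to place 3 short motifs. The windows are the 250 bases before the transcription start in RefSeq promoters (GRCh38.p14), in the direction of the gene, and capitals mark the motif. Where a gene had several listed starts, the first window that held the motif was printed. Presence of the motif in such a window was thus fixed by the choice, and the other starts are not described. CYP1A1 (chr15:74725529-74725778, minus strand) held 1 xenobiotic response element core, GCGTG, 57 bases before the start. TIPARP (chr3:156674340-156674589, plus strand, 1 of 3 listed starts) held 2, both on the opposite strand. TXNRD1 (chr12:104215529-104215778, plus strand, 1 of 2 listed starts) held 1 antioxidant response element core, TGACNNNGC. IFIT1 (chr10:89392373-89392622, plus strand) and IFIT3 (chr10:89327747-89327996, plus strand, 1 of 2 listed starts) each held 2 copies of the letters of an interferon-stimulated response element, GAAA, any 2 bases and GAAA again, all on the opposite strand.
CYP1A1: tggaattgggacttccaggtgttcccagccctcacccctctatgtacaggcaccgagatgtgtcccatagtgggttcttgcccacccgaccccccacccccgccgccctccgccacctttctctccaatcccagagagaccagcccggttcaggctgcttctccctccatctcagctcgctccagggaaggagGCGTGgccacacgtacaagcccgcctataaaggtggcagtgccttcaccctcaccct
TIPARP: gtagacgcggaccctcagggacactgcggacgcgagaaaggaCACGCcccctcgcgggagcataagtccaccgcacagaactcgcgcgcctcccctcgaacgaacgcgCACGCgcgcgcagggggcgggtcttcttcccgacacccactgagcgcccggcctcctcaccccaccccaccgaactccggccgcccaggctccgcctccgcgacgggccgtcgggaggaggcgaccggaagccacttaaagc
TXNRD1: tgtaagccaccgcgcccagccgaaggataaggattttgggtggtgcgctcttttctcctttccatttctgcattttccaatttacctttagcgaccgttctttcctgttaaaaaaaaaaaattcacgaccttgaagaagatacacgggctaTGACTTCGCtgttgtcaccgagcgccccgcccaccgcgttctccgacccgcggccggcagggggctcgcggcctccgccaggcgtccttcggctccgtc
IFIT1: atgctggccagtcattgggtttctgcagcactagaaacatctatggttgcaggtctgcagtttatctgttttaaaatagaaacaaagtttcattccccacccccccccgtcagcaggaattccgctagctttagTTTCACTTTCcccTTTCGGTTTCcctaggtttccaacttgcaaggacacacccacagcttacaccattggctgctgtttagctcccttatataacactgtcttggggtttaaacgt
IFIT3: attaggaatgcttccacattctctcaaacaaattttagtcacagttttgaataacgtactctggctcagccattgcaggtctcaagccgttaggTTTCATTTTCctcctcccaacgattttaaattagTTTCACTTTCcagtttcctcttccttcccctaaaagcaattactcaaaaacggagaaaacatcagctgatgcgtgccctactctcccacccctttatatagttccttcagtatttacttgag

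Searched on both strands, GCGTG was found in 32.2% of all 35116 promoter windows, TGACNNNGC in 10.9% and the interferon element in 3.02%. By gene, with any listed start counted, GCGTG was present for 16 of the 29 matched genes that were higher under CSC (55.2%) and for 53.9% of the 8450 tested genes that matched. TGACNNNGC was present for 7 of these 29 genes (24.1%, against 16.1% of tested genes). The interferon element was present for 2 of the 13 matched genes that were lower under CSC (15.4%, against 3.35% of tested genes), which were IFIT1 and IFIT3. A match of letters is a description and not a binding site.

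The targeted gene was read first. FAT1 (chr4:187508948-187647876 in hg19, minus strand) had 0, 6 and 3 UMIs in the DMSO wells and 5, 3 and 8 in the CSC wells of FAT1 cells. The GFP wells had 9, 14 and 8 UMIs under DMSO and 5, 8 and 7 under CSC. Scaled to depth, FAT1 cells read 0 to 3.52 CPM (UMIs scaled to a library of 1000000) under DMSO and 1.82 to 4.24 CPM under CSC, and GFP cells 5.55 to 11.1 CPM under DMSO and 4.26 to 7.13 CPM under CSC. Every well of FAT1 cells thus lay below every GFP well, with a narrow gap between the nearest wells, and the difference was not tested. 3′ reads can lie outside an edited exon, and population and place on the plate cannot be told apart. No change of FAT1 with CSC was called (log2 fold change 1.18, SE 0.68, adjusted p = 0.723), and the value was -0.01 without DMSO replicate 1, which had no FAT1 UMI. The 10 airway epithelial markers, among them EPCAM, CDH1, TP63 and 7 keratins, were detected in all 6 wells, with summed counts of 1083 to 1392 UMIs in DMSO wells and 1034 to 1354 in CSC wells. Of these 10, KRT7 and KRT14 were low, at 2 to 8 and 6 to 17 UMIs a well. Markers of other cell types were at or near 0, the leukocyte marker LYZ with 3, 5 and 4 UMIs under DMSO and 6, 5 and 4 under CSC, much like KRT7. The summed UMIs under DMSO and CSC were 0 and 0 for the 4 secretory markers, 0 to 1 and 1 to 2 for the 4 alveolar, 0 to 3 and 3 to 5 for the 4 endothelial, 2 to 4 and 5 to 7 for the 6 fibroblast, 2 to 6 and 5 to 12 for the 6 ciliated and 3 to 8 and 5 to 9 for the 5 leukocyte markers. At 0 in all 6 wells were 4 secretory, 3 alveolar, 3 endothelial, 4 fibroblast, 2 ciliated and 3 leukocyte markers, and SCGB1A1, FOXJ1, SFTPC, VWF, COL1A2 and PTPRC did not pass the filter on low counts. The part of these few UMIs in the results was not tested.

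Some genes of xenobiotic metabolism and of the oxidant response were higher under CSC in FAT1 cells. A smaller group was lower that held some interferon-stimulated genes, CAV1 and KRT19. Of 11374 genes with a mean count above 1, 33 were higher (0.29%) and 19 were lower (0.167%) at an adjusted p under 0.05 by limma, in all 0.457% of the genes tested. At an unadjusted p under 0.05 there were 857 genes (7.53%). The wells did not overlap for 51 of the 52 called genes (0.448% of genes tested), the exception being MT2A. Over all genes tested, the 3 CSC wells lay above the 3 DMSO wells for 5.93% and below them for 6%. The largest changes were upward: 21 of the higher genes moved by more than 1 log2 unit and 6 of the lower genes fell by more than 1. The prior degrees of freedom were 94.5 against 4 residual, so the smallest adjusted p-values owe more to a variance pooled over genes than to the replicate wells. Levels are given in CPM with TMM factors.

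**Figure D1:**
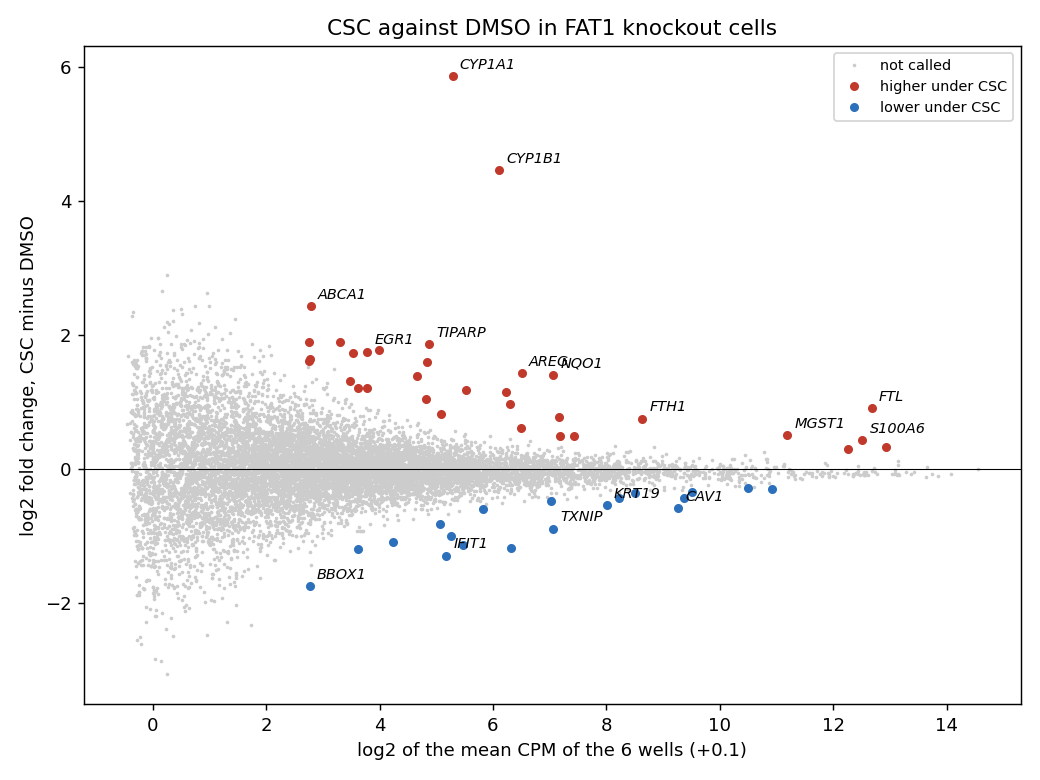
Each point is a gene tested between CSC and DMSO wells of FAT1 knockout cells, with the log2 of its mean CPM (plus 0.1) on the horizontal axis and its log2 fold change from limma on the vertical axis. The 33 genes called higher are red and the 19 called lower are blue, with CYP1A1 and CYP1B1 far above the rest.

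Among AHR genes, the P450 enzymes CYP1A1 and CYP1B1, which oxidize polycyclic hydrocarbons, showed the 2 largest changes of the whole comparison. CYP1A1 (chr15:75011883-75017877 in hg19, minus strand) was at 0, 1.76 and 3.95 CPM in the DMSO wells and at 75.1, 71.0 and 82.2 CPM in the CSC wells. Counted UMIs were 0, 3 and 5 against 115, 117 and 155, so the base of this ratio is thinly counted. The change was 5.87 log2 units (SE 0.59, adjusted p = 2.79e-13), or 58.7-fold. CYP1B1 (chr2:38294116-38337044, minus strand) was at 5.60, 5.28 and 6.31 CPM under DMSO and at 146, 121 and 129 CPM under CSC. Its wells were separated by a wide gap, and the change was 4.47 log2 units (SE 0.29, adjusted p = 1e-24), or 22.2-fold.

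TIPARP, an ADP-ribosyltransferase that AHR induces and that restrains AHR in turn, rose as well. Its wells read 12.5, 10.6 and 15.0 CPM under DMSO and 45.7, 43.1 and 48.3 CPM under CSC (log2 1.87, SE 0.22, adjusted p = 5.04e-10). NQO1, a quinone reductase that answers to both AHR and NRF2, read 74.1, 76.3 and 67.9 CPM under DMSO and 174, 217 and 189 CPM under CSC. Every CSC well of both genes lay above every DMSO well, and NQO1 changed by 1.41 log2 units (SE 0.12, adjusted p = 2.24e-16). Of the 10 listed AHR genes, 9 were tested, these 4 were higher and none was lower, and the median was 1.41 against -0.005 over all genes tested. The mRNA of the receptor itself, AHR, and of its partner ARNT gave log2 values of 0.03 (SE 0.29) and -0.19 (SE 0.26), neither called. AHRR, the repressor of the receptor, had 0, 1 and 0 UMIs under DMSO and 3, 1 and 5 under CSC, and like CYP1A2 and ALDH3A1 it was not called.

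**Figure D2:**
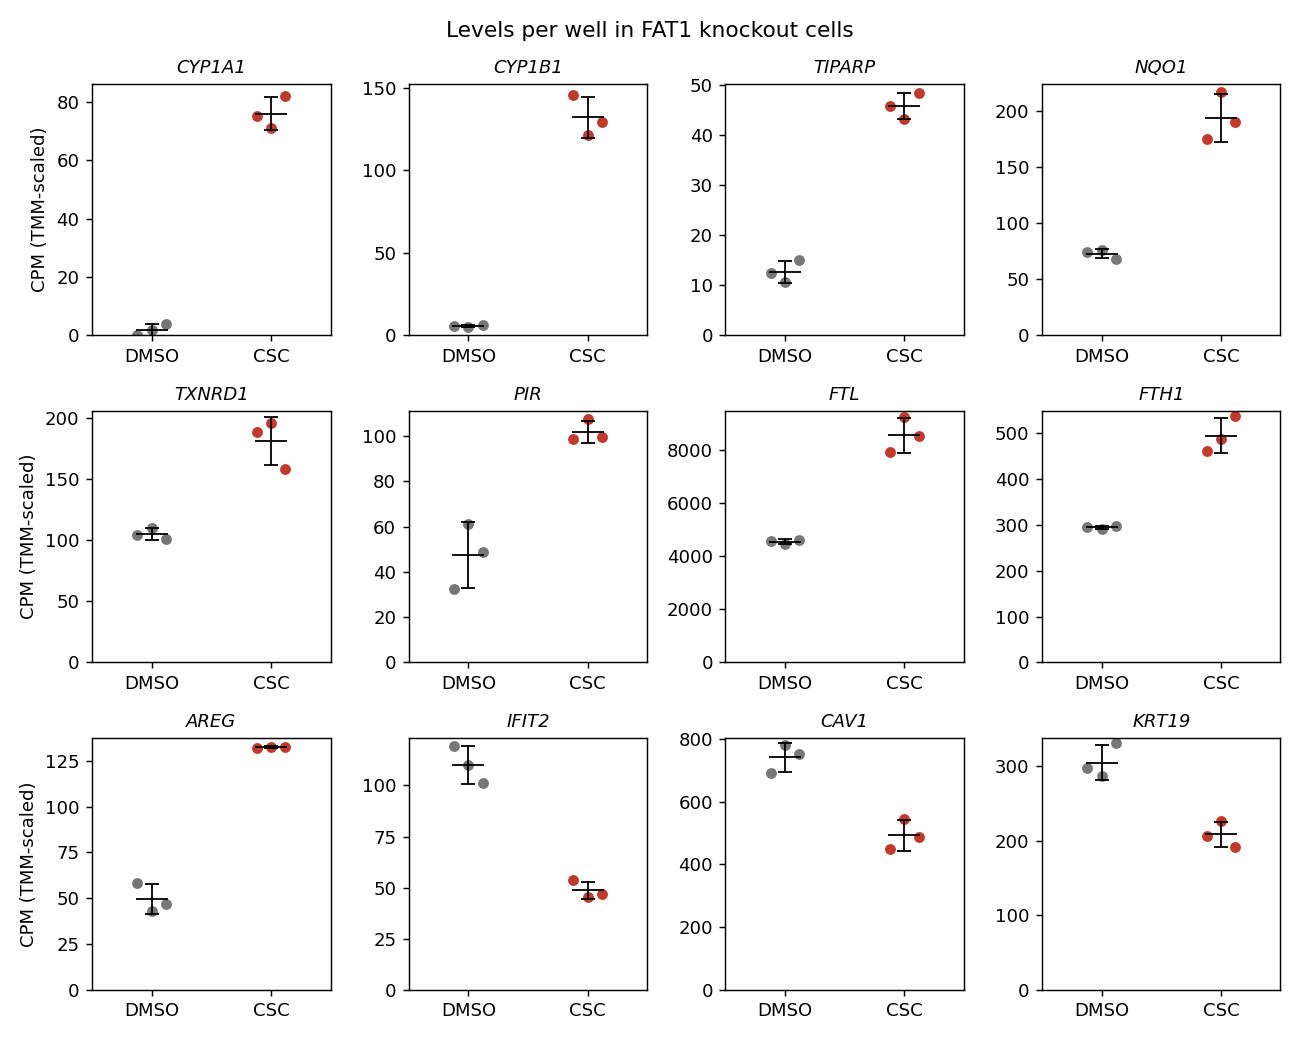
TMM-scaled CPM are plotted for 12 genes in each DMSO well (grey) and CSC well (red) of FAT1 knockout cells, with a line at the mean and bars of 1 SD (n = 3). The first 9 genes are higher in all 3 CSC wells, and IFIT2, CAV1 and KRT19 are lower in all 3.

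Among genes tied to the oxidant response, some of iron storage, thioredoxin and quinone reduction were higher under CSC. FTL, the ferritin light chain, rose from 4583, 4440 and 4614 CPM under DMSO to 7892, 9218 and 8500 CPM under CSC (log2 0.92, SE 0.06, adjusted p = 9.47e-26). FTH1, the ferritin heavy chain, rose from 296, 292 and 298 CPM to 462, 487 and 537 CPM (log2 0.76, SE 0.09, adjusted p = 1.11e-09). The DMSO wells of both genes lay close together and all CSC wells were above them, and both have processed pseudogenes, so their levels are uncertain. FTL and FTH1 were the only 2 of the 9 tested haem and iron genes to be called, and the median of these 9 was 0.12. HMOX1, haem oxygenase 1 and a familiar NRF2 target, was not tested, with 1, 0 and 0 UMIs under DMSO and 0, 1 and 1 under CSC.

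TXNRD1, the reductase that recycles thioredoxin, was at 104, 110 and 101 CPM under DMSO and at 189, 196 and 159 CPM under CSC (log2 0.78, SE 0.12, adjusted p = 7.05e-07). Its substrate TXN rose less, with a log2 change of 0.30 (SE 0.06, adjusted p = 0.0016). This call was lost without DMSO replicate 1 (0.23, adjusted p = 0.225), by edgeR (adjusted p = 0.118) and by DESeq2 (adjusted p = 0.0981). TXNIP, which binds and inhibits thioredoxin and also limits glucose uptake, moved the other way. It read 219, 154 and 150 CPM under DMSO and 75.8, 94.0 and 108 CPM under CSC (log2 -0.89, SE 0.12, adjusted p = 1.71e-07). Of the 11 thioredoxin and peroxiredoxin genes, 2 were thus higher and 1 lower, with a median of 0.02. SRXN1, which repairs oxidized peroxiredoxins, had 12, 8 and 11 UMIs under DMSO and 23, 18 and 29 under CSC but was not called (log2 1.03, SE 0.31, adjusted p = 0.161).

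Among 17 tested genes of quinone, aldehyde and ketone reduction and conjugation, 4 were higher and none was lower, with a median of 0.25. NQO1 was one of these, as it stands on both lists. PIR, a nuclear iron-binding protein that NRF2 induces, was at 32.4, 61.0 and 48.9 CPM under DMSO and at 98.6, 107 and 99.7 CPM under CSC (log2 1.15, SE 0.15, adjusted p = 1.19e-08). MGST1, a membrane glutathione transferase, went from 1873, 1952 and 1960 CPM to 2498, 2950 and 2761 CPM (log2 0.51, SE 0.07, adjusted p = 1.49e-08). AKR1C3, an aldo-keto reductase of steroids and reactive carbonyls with close paralogs, had 14, 17 and 7 UMIs against 31, 35 and 31 (log2 1.21, SE 0.28, adjusted p = 0.014). Its call was lost by DESeq2 (adjusted p = 0.258) and without DMSO replicate 1 (adjusted p = 0.0792) or DMSO replicate 3 (adjusted p = 0.183). CSC wells were higher throughout for these genes.

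Other lists of genes linked to NRF2 gave few calls, and the activity of NRF2 was not tested. In glutathione synthesis and recycling, 1 of 10 genes was higher, with a median of 0.07. This was SLC3A2, the heavy chain shared by cystine and leucine transporters, at 75.3, 75.1 and 63.1 CPM under DMSO and 106, 113 and 108 CPM under CSC (log2 0.62, SE 0.13, adjusted p = 0.00199). GCLM and GCLC, the subunits of the rate-limiting glutathione enzyme, gave log2 values of 0.25 (SE 0.29) and 0.20 (SE 0.30), and SLC7A11, the cystine carrier, 0.06 (SE 0.21), none of them called. None of the 6 tested NRF2 regulators was called (median 0.41), nor any of the 6 NADPH-supplying genes (median 0.01) or the 4 efflux pumps (median 0.30). NFE2L2, which encodes NRF2, had 37, 57 and 40 UMIs under DMSO and 56, 63 and 76 under CSC (log2 0.42, SE 0.18, adjusted p = 0.563). IDH1, a source of NADPH, gave -0.01 (SE 0.10), and the efflux pump ABCC5 -0.13 (SE 0.40).

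AREG, a ligand of the EGF receptor, was at 58.5, 42.9 and 46.6 CPM under DMSO and at 132, 133 and 133 CPM under CSC, a gap far wider than the spread of either group (log2 1.44, SE 0.14, adjusted p = 3.44e-14). Of 16 tested immediate early and ERK feedback genes, 3 were called higher and none was lower. All 16 had a positive log2 value and the median was 1.14, against -0.005 over all genes tested. Many of them had few UMIs. DMSO replicate 3 was the lowest DMSO well for FOS, DUSP1, MYC (11, 14 and 1 UMIs) and SPRED1 (7, 6 and 0), but not for EGR1 or JUNB. EGR1, a zinc-finger factor induced by growth signals, had 8, 11 and 9 UMIs under DMSO and 25, 35 and 49 under CSC (log2 1.76, SE 0.31, adjusted p = 5.72e-05). DUSP1, a phosphatase that shuts off MAP kinases, had 30, 26 and 10 UMIs against 64, 47 and 75 (log2 1.39, SE 0.23, adjusted p = 2.31e-05). FOS, a subunit of AP-1, had 6, 6 and 1 UMIs against 15, 23 and 15 (log2 1.90, SE 0.47, adjusted p = 0.0251). CSC wells exceeded DMSO wells for all of these, but the call of FOS was lost without DMSO replicate 1, 2 or 3 or CSC replicate 2 (adjusted p = 0.127, 0.129, 0.226 and 0.0983). FOS was also not called by DESeq2 (adjusted p = 0.256) or in the limma fit over all 12 FAT1 wells (adjusted p = 0.0895).

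Among tested interleukin genes, IL1A and IL1B were called higher under CSC, at low counts. IL8 (log2 0.30, SE 0.77) and IL1RN (-0.07, SE 0.61), the latter an IL-1 receptor antagonist, were not called. IL1A, an alarm cytokine of epithelium, had 16, 5 and 5 UMIs under DMSO and 20, 32 and 36 under CSC (log2 1.74, SE 0.34, adjusted p = 0.000809). Its call was lost when DMSO replicate 2 was left out (1.31, adjusted p = 0.115) and by DESeq2 (adjusted p = 0.11). IL1B had 12, 13 and 8 UMIs against 28, 24 and 35 (log2 1.22, SE 0.29, adjusted p = 0.021). Its adjusted p was 0.111, 0.129 and 0.112 without DMSO replicates 1, 2 and 3, 0.0907 without CSC replicate 3, and 0.307 by DESeq2. IL1A and IL1B were 2 of only 6 tested genes among 18 listed cytokines and NF-kB feedback genes (median 0.25). IL6, CXCL1, CXCL2 and CCL20 were among the 12 that did not reach a mean count above 1.

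SLC7A5, the leucine transporter that pairs with SLC3A2, was at 54.2, 51.7 and 51.3 CPM under DMSO and 94.7, 83.1 and 135 CPM under CSC (log2 0.98, SE 0.15, adjusted p = 7.14e-07). DDIT4, an inhibitor of mTORC1, was at 23.7, 15.9 and 15.0 CPM against 39.2, 41.2 and 32.9 CPM (log2 1.05, SE 0.21, adjusted p = 0.000743). Both are on the list of ATF4 and unfolded protein response genes, of which 2 of 22 were higher and none lower, with a median of -0.05, and ATF4 itself gave 0.06 (SE 0.15, adjusted p = 0.961). The retinoid enzymes ALDH1A3, which makes retinoic acid, and DHRS3, which reduces retinal, rose by 1.79 (SE 0.32, adjusted p = 9.71e-05) and 1.61 log2 units (SE 0.22, adjusted p = 1.37e-07). Their wells did not overlap, with 9.96, 9.39 and 2.37 CPM against 22.2, 32.8 and 18.6 CPM for ALDH1A3, and 30, 16 and 19 UMIs against 73, 58 and 83 for DHRS3.

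A further group of called genes outside these themes included ABCA1, the cholesterol exporter, with 1, 7 and 2 UMIs under DMSO and 23, 20 and 14 under CSC (log2 2.44, SE 0.53, adjusted p = 0.00412). Its call was lost without DMSO replicate 1 (1.83, adjusted p = 0.153). MED24, a subunit of the Mediator complex, had 10, 5 and 4 UMIs against 20, 21 and 39 (log2 1.90, SE 0.37, adjusted p = 0.000755). S100A6, a small calcium-binding protein, was the single gene called among 16 S100 and antiprotease genes (log2 0.43, SE 0.06, adjusted p = 3.45e-08, list median -0.01). MT2A was the single gene called among 6 metallothioneins (log2 0.33, SE 0.07, adjusted p = 0.000783, list median 0.01), but its wells overlapped, at 5697, 8173 and 6951 CPM under DMSO and 7152, 10040 and 8755 CPM under CSC, and without DMSO replicate 1 the value was 0.20 (adjusted p = 0.475). By edgeR and DESeq2 it was not called (adjusted p = 0.0794 and 0.999). MT2A has near-identical relatives and its level is uncertain. ACTG1, a cytoplasmic actin with processed pseudogenes, changed by 0.50 (SE 0.11, adjusted p = 0.00941). This call was lost by DESeq2 (adjusted p = 0.148) and without DMSO replicate 1 (0.31, adjusted p = 0.494) or CSC replicate 3 (adjusted p = 0.0589). The other higher genes were WDR66 (log2 1.19, SE 0.17, adjusted p = 2.76e-07), ACSL1, SRSF5, HES1, CD163L1 and C9orf169, the last 5 with adjusted p-values between 0.00941 and 0.0415 and with the call lost in at least 3 of the 14 alternatives each.

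Some genes of the interferon response were lower under CSC. IFIT2, IFIT1 and IFIT3 are neighbours on chromosome 10 that encode antiviral RNA-binding proteins. IFIT2 (chr10:91043451-91069028 in hg19, plus strand) was at 120, 110 and 101 CPM under DMSO and at 53.5, 45.5 and 46.7 CPM under CSC (log2 -1.18, SE 0.14, adjusted p = 3.64e-10). IFIT1, whose upstream sequence is printed above, was at 49.8, 58.1 and 45.8 CPM against 14.4, 26.7 and 22.3 CPM (log2 -1.29, SE 0.19, adjusted p = 6.53e-07). IFIT3 was at 67.2, 52.8 and 63.9 CPM against 20.9, 24.9 and 37.1 CPM (log2 -1.13, SE 0.18, adjusted p = 2.29e-06). All CSC wells of these 3 genes lay below all DMSO wells. Of 15 tested interferon-stimulated genes these 3 were lower, none was higher and 1 had a positive log2 value. Their median was -0.49, against -0.005 over all genes tested. ISG15, a ubiquitin-like modifier, had a log2 value of -0.41 (SE 0.22, adjusted p = 0.696). In bulk wells, fewer cells of a kind and less RNA per cell cannot be told apart.

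Structural and epithelial genes gave single calls. CAV1, the coat protein of caveolae, was at 692, 780 and 751 CPM under DMSO and 447, 546 and 487 CPM under CSC (log2 -0.58, SE 0.09, adjusted p = 6.83e-07), and was the only call among 7 caveolar genes (median -0.09). CAV2, its partner, gave -0.15 (SE 0.15, adjusted p = 0.886). KRT19, a simple-epithelium keratin, was at 297, 286 and 331 CPM against 206, 226 and 192 CPM (log2 -0.54, SE 0.10, adjusted p = 0.000256), the single call among 10 simple keratin and adhesion genes (median -0.02). None of 13 basal keratin and hemidesmosome genes was called (median -0.09). KRT5, a basal keratin, had a log2 value of -0.29 (SE 0.11, adjusted p = 0.442).

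TOP2A, the topoisomerase of dividing cells, was at 336, 389 and 303 CPM under DMSO and 272, 255 and 236 CPM under CSC (log2 -0.42, SE 0.10, adjusted p = 0.0109). It was the only call among 20 cell-cycle genes, of which 4 had positive values (median -0.17, against -0.005 over all genes tested). Its call was lost without DMSO replicate 1 (adjusted p = 0.0518), DMSO replicate 2 (adjusted p = 0.49) or CSC replicate 3 (adjusted p = 0.289). MKI67, the proliferation antigen, gave -0.47 (SE 0.13, adjusted p = 0.0828) and CCNB1, a mitotic cyclin, -0.12 (SE 0.08, adjusted p = 0.79). HSPB1, a small heat-shock protein, was the single call among 11 heat-shock genes (log2 -0.59, SE 0.15, adjusted p = 0.0447, list median 0.04), and in 7 of the 14 alternatives it was no longer called. SULT1E1, the oestrogen sulphotransferase, had 48, 38 and 32 UMIs against 17, 19 and 24 (log2 -1.09, SE 0.24, adjusted p = 0.00495). Its adjusted p was 0.0866 without DMSO replicate 1 and 0.138 by DESeq2. METTL7A, a membrane methyltransferase, had 101, 71 and 61 UMIs under DMSO and 43, 35 and 49 under CSC (log2 -0.99, SE 0.18, adjusted p = 0.000179). HMGB2, a chromatin protein of dividing cells, fell by 0.43 (SE 0.09, adjusted p = 0.0016), with an adjusted p of 0.259 without DMSO replicate 2. PHACTR3, a regulator of protein phosphatase 1, fell by 0.82 (SE 0.19, adjusted p = 0.00961). Its adjusted p was 0.11 without DMSO replicate 1, 0.144 without CSC replicate 1 and 0.272 by DESeq2. The remaining lower genes were CENPF and PRC1, both of mitosis, BBOX1, TMSB4X, ARL6IP1, SMEK2 and PTMA, with adjusted p-values between 0.0145 and 0.0447 and the call lost in at least 4 of the 14 alternatives each.

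Several lists held no call. None of 20 FAT1 and Hippo-YAP genes was called (median -0.01), with the YAP target CYR61 at 4, 6 and 7 UMIs under DMSO and 7, 17 and 21 under CSC (log2 1.17, SE 0.41, adjusted p = 0.316). None of 17 p53 targets was called (median 0.21), where CDKN1A, a cyclin-dependent kinase inhibitor, gave 0.25 (SE 0.23). MDM2, the p53 ubiquitin ligase, gave -0.11 (SE 0.15), and the Hippo kinase STK4 -0.12 (SE 0.17). No call was made among 19 sterol and fatty acid genes (median -0.02), 14 glycolysis and hypoxia genes (median 0.10) or 13 matrix, TIMP and plasminogen genes (median 0.13). In these lists FDFT1, a squalene synthase, gave -0.13 (SE 0.09), GAPDH, a glycolytic enzyme with many pseudogenes, 0.09 (SE 0.06) and TIMP1, a protease inhibitor, 0.13 (SE 0.09).

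**Figure D3:**
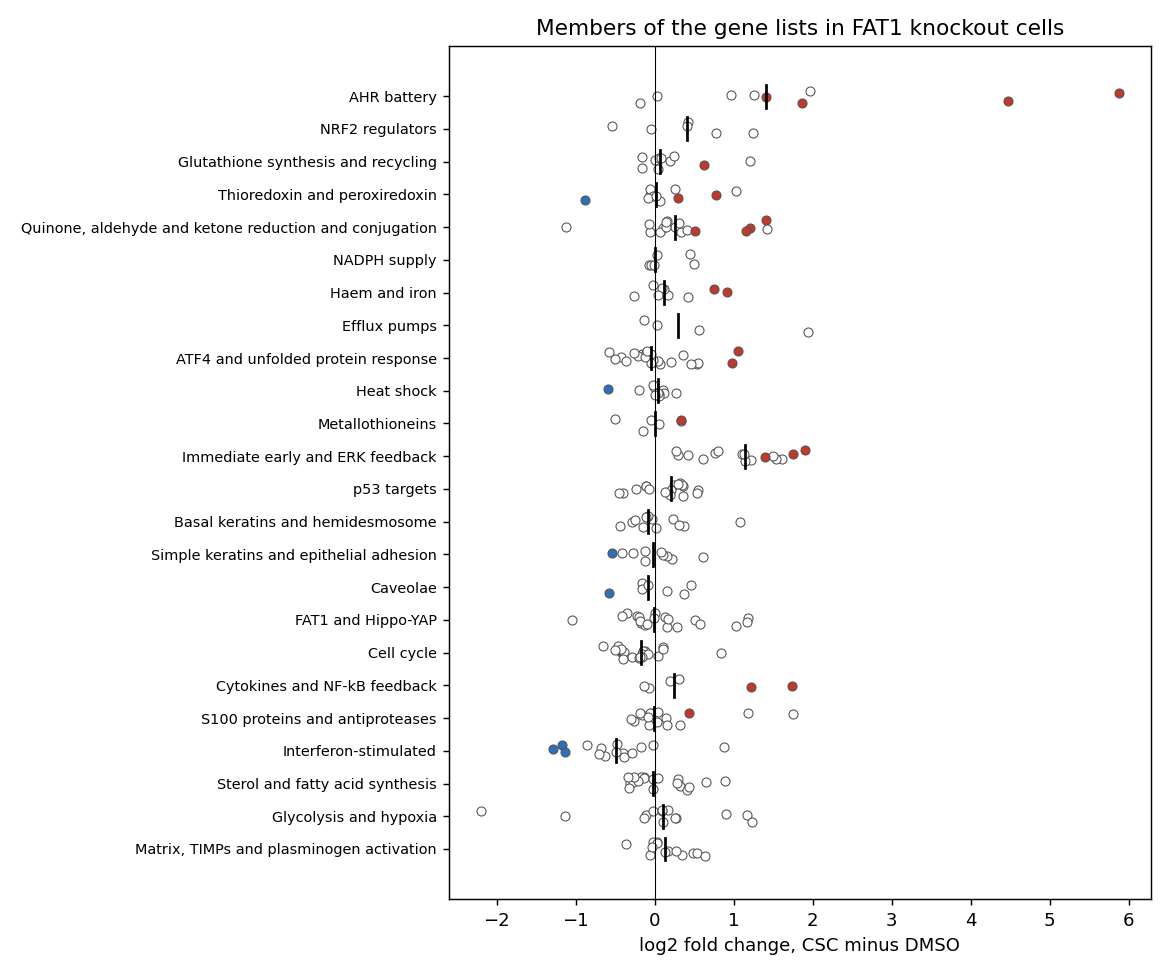
Every tested member of 24 gene lists is placed by its log2 fold change between CSC and DMSO in FAT1 knockout cells, with a black bar at the list's median and filled circles for genes called by limma (red higher, blue lower). The AHR list reaches 5.87 at its upper end, all 16 immediate early genes lie above 0, and 14 of the 15 interferon-stimulated genes lie below 0. The median over all genes tested was -0.005.

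The response was then set beside that of GFP control cells exposed to the same CSC dose, to see whether the populations responded differently. Population and place on the plate cannot be told apart in this contrast of responses. No gene of 11286 differed in its CSC response between the populations at an adjusted p under 0.05 by limma (0%), and none by edgeR or DESeq2, while leaving out 1 well gave 0 to 7. Unadjusted p-values under 0.05 were found for 612 genes (5.42%) by limma, 565 by edgeR and 180 by DESeq2. All 52 genes called in FAT1 cells could be compared with GFP cells, which share no well with them. The 3 GFP CSC wells all lay above the GFP DMSO wells for 25 of the 33 genes that were higher in FAT1 cells (7.4% of all genes did so) and all lay below for 11 of the 19 that were lower (6.59% of all genes). None separated in the opposite direction.

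The response of CYP1A1 was 5.84 log2 units (SE 0.55) in FAT1 cells and 4.75 (SE 0.54) in GFP cells, a difference of 1.09 with a 95% interval of -0.42 to 2.61. For CYP1B1 the responses were 4.46 (SE 0.29) and 3.89 (SE 0.29), and the interval of the difference ran from -0.23 to 1.37. NQO1 gave 1.40 (SE 0.12) in FAT1 cells and differed by -0.10 (SE 0.15), with an interval of -0.41 to 0.20, although its levels stood higher in GFP cells, at 162, 189 and 160 CPM under DMSO and 499, 485 and 454 CPM under CSC. TIPARP, PIR and MGST1 differed in response by -0.00 (-0.68 to 0.67), 0.00 (-0.40 to 0.41) and -0.01 (-0.17 to 0.15). These intervals leave room for differences that 3 wells a group could not show.

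FTL responded by 0.91 (SE 0.04) in FAT1 cells and 1.20 (SE 0.05) in GFP cells. The difference of -0.29 (SE 0.07) had an adjusted p of 0.187, and with HcRed cells, the control of the overexpression arm, in place of GFP cells it was -0.31 with an adjusted p of 0.00573. The FTL difference was also called without FAT1 CSC replicate 1 (-0.24, adjusted p = 0.00106) or 2 (-0.30, adjusted p = 0.000522). MT2A gave 0.32 (SE 0.06) and 0.04 (SE 0.05), a difference of 0.28 (adjusted p = 0.659) that was called without FAT1 CSC replicate 1 (0.39, adjusted p = 1.99e-06) or FAT1 DMSO replicate 2 (0.44, adjusted p = 0.00036) and was -0.01 against HcRed cells. TXNRD1 responded by 0.77 (SE 0.11) and 1.26 (SE 0.11), with a difference of -0.49 (SE 0.16, adjusted p = 0.751). SLC7A5 went the other way, with 0.97 (SE 0.14) in FAT1 cells and 0.19 (SE 0.17) in GFP cells, a difference of 0.78 (SE 0.22, adjusted p = 0.659) that was 1.15 against HcRed cells (adjusted p = 0.00221). ACTG1 gave 0.49 (SE 0.12) and -0.16 (SE 0.13), with a difference of 0.65 (adjusted p = 0.659) that was 0.85 against HcRed cells (adjusted p = 0.00573) and 0.89 without GFP DMSO replicate 3 (adjusted p = 0.0209). IFIT1 gave -1.30 (SE 0.19) in FAT1 cells and -1.11 (SE 0.57) in GFP cells, a difference of -0.19 with a 95% interval of -1.36 to 0.98. IFIT3 gave -1.14 (SE 0.17) and -0.55 (SE 0.39), a difference of -0.59 (-1.43 to 0.24). IFIT2 gave -1.19 (SE 0.13) and -0.03 (SE 0.33), and the difference of -1.15 had an adjusted p of 0.751. The starting levels of IFIT2 were unlike, at 8.93, 13.4 and 9.70 CPM in GFP DMSO wells against 101 to 120 CPM in FAT1 DMSO wells, and population and place on the plate cannot be told apart in that contrast of levels.

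**Figure D4:**
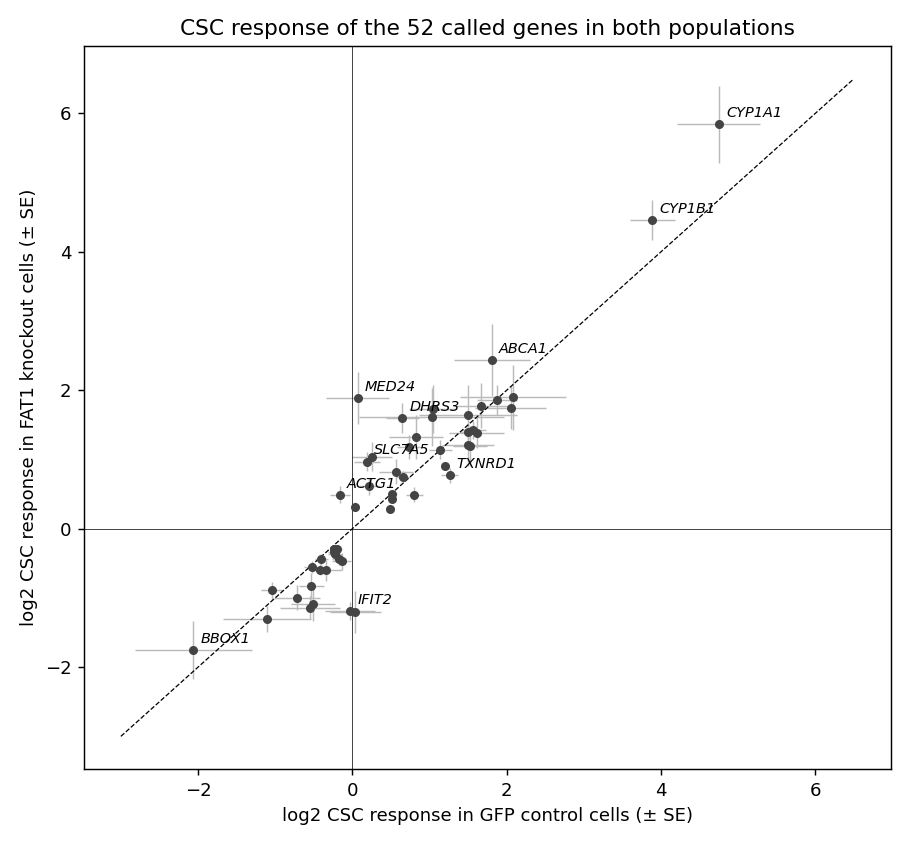
The 52 genes called between CSC and DMSO in FAT1 knockout cells are plotted by their log2 CSC response in GFP control cells (horizontal) and in FAT1 cells (vertical), with bars of 1 SE and a dashed line of equal response. CYP1A1 and CYP1B1 stand at the upper right in both, and IFIT2 lies near 0 in GFP cells.

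The mixture was last compared with the single hydrocarbon in the same FAT1 cells. CSC and BaP were given at different doses and in different units, and their wells in different rows, so the levels are set side by side. Of 11251 genes tested, 18 differed between CSC and BaP wells (0.16%), with 5 higher (0.0444%) and 13 lower (0.116%) under CSC, and the wells of all 18 did not overlap (0.16%). Over all genes tested, the CSC wells lay above the BaP wells for 6.99% and below them for 6.25%. At an unadjusted p under 0.05 there were 944 genes (8.39%). No AHR gene was among the 18. CYP1A1 stood at 75.1, 71.0 and 82.2 CPM under CSC and at 95.4, 85.5 and 90.0 CPM under BaP (log2 -0.25, SE 0.13, adjusted p = 0.608). CYP1B1 stood at 114, 109 and 117 CPM under BaP (log2 0.21 for CSC minus BaP, SE 0.12, adjusted p = 0.649), and NQO1 at 162, 160 and 192 CPM (0.17, SE 0.11, adjusted p = 0.69).

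Interferon-stimulated genes made up 5 of the 13 genes lower under CSC than under BaP, of 16 tested (median -0.76). IFIT2 was at 123, 157 and 160 CPM in BaP wells, against 45.5 to 53.5 CPM in CSC wells (log2 -1.60, SE 0.14, adjusted p = 2.95e-12). IFIT3 was at 66.0, 71.3 and 68.1 CPM under BaP (log2 -1.32, SE 0.17, adjusted p = 1.81e-06) and IFIT1 at 39.6, 50.7 and 43.1 CPM (log2 -1.09, SE 0.20, adjusted p = 0.00132). IFI27, an interferon-induced mitochondrial protein, differed by -1.09 (SE 0.18, adjusted p = 0.000325) and IFI44 by -0.74 (SE 0.15, adjusted p = 0.00567). By DESeq2 IFI27 was not called (adjusted p = 0.149) and IFIT1 had no adjusted p (log2 -1.08). Between CSC and DMSO, limma called neither IFI27 (log2 -0.38, SE 0.17, adjusted p = 0.568) nor IFI44 (-0.48, SE 0.15, adjusted p = 0.223). All BaP wells of IFIT2 lay above its DMSO wells, while those of IFIT1 and IFIT3 overlapped them. TXNIP was again lower under CSC, with 238, 215 and 200 CPM in BaP wells (log2 -1.23, SE 0.12, adjusted p = 6.56e-11). ALAS1, which starts haem synthesis, was at 110, 95.8 and 107 CPM under BaP and at 54.9, 68.5 and 60.0 CPM under CSC (log2 -0.77, SE 0.13, adjusted p = 0.00041), and its DMSO wells read 53.5, 61.0 and 53.7 CPM.

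Of the 5 genes higher under CSC than under BaP, SCD, the fatty acid desaturase, was at 276, 248 and 255 CPM under CSC, 159, 158 and 148 CPM under BaP and 255, 254 and 248 CPM under DMSO (log2 0.74 for CSC minus BaP, SE 0.10, adjusted p = 6.89e-06). ABCA1 had 23, 20 and 14 UMIs under CSC and 0, 1 and 0 under BaP, a depth-scaled ratio of 43.6 with an exact 95% interval of 7.52 to 1750 that covers counting error only (adjusted p = 0.00387). Its call was lost without BaP replicate 1 (adjusted p = 0.137) or 3 (adjusted p = 0.107), and DESeq2 gave it no adjusted p. FTH1 was higher under CSC by 0.40 (SE 0.09, adjusted p = 0.0258), with 395, 367 and 364 CPM in BaP wells, and its call was lost without CSC replicate 3 (adjusted p = 0.308) or BaP replicate 1, 2 or 3 (0.0663, 0.234 and 0.278). ITGA2, a collagen receptor subunit, and HSP90AA1, a chaperone, were higher by 1.30 (SE 0.30, adjusted p = 0.0356) and 0.28 (SE 0.07, adjusted p = 0.0454). The call of ITGA2 was lost without CSC replicate 1 or 2 or BaP replicate 1, 2 or 3 (adjusted p = 0.0769, 0.0646, 0.194, 0.0857 and 0.222), and DESeq2 gave it no adjusted p. That of HSP90AA1 was lost by edgeR (adjusted p = 0.191) and without CSC replicate 3 or BaP replicate 1, 2 or 3 (adjusted p = 0.286, 0.151, 0.456 and 0.387). The remaining 6 lower genes were DDIT3, GLUL, HIST1H4C, B2M, RPS21 and RPL7A, with log2 values between -0.67 and -0.29. Apart from RPS21, each lost its call without at least 1 well: CSC replicate 2 or 3 or BaP replicate 1 for DDIT3 (adjusted p = 0.0928, 0.0516 and 0.307), CSC replicate 3 or BaP replicate 1 or 3 for GLUL (0.235, 0.231 and 0.108), CSC replicate 3 or BaP replicate 2 or 3 for HIST1H4C (0.103, 0.0857 and 0.108) and B2M (0.306, 0.318 and 0.298), and BaP replicate 3 for RPL7A (0.0583). By edgeR, B2M and RPL7A were not called (adjusted p = 0.207 and 0.0768). The counts of the ribosomal protein genes are uncertain because many near-identical copies exist.

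**Figure D5:**
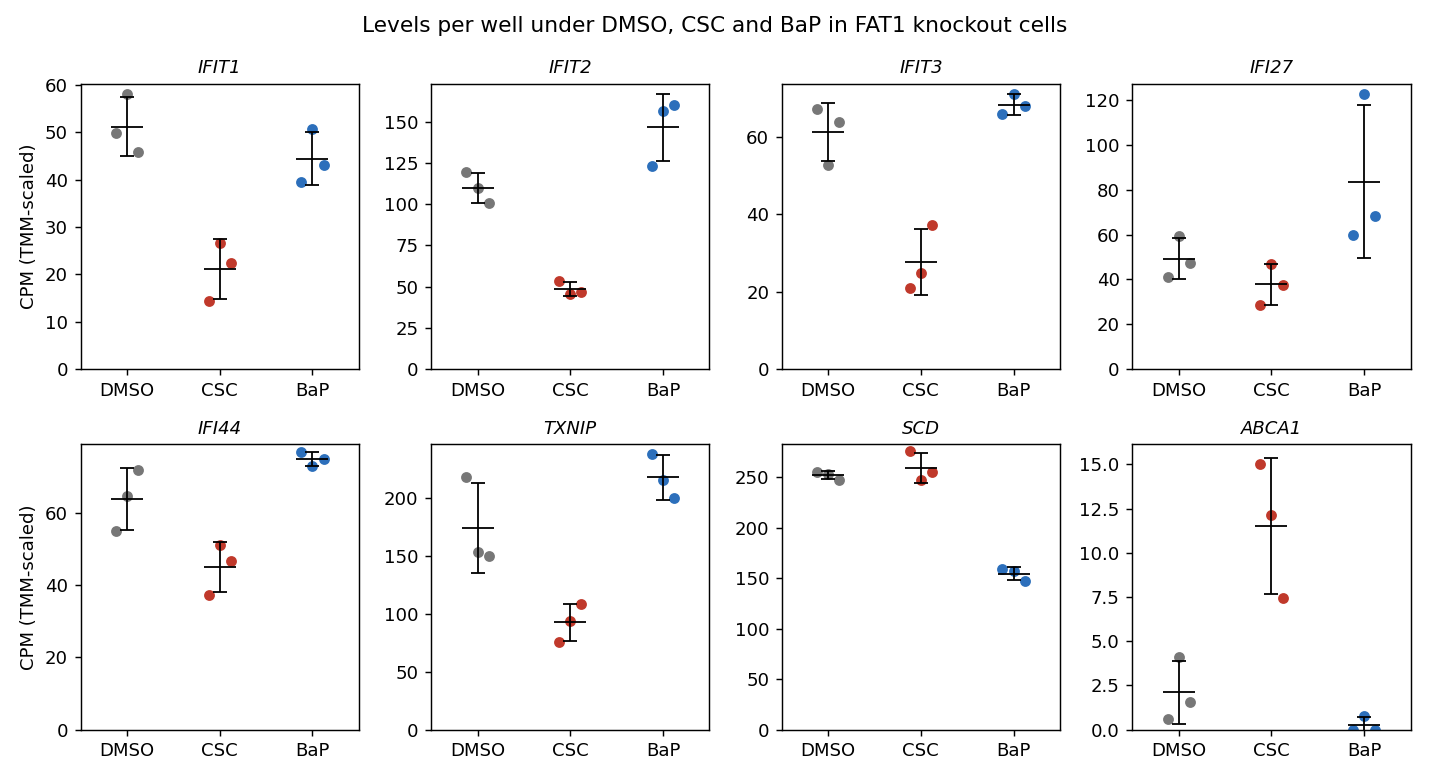
TMM-scaled CPM are plotted for 8 genes in each DMSO (grey), CSC (red) and BaP (blue) well of FAT1 knockout cells, with a line at the mean and bars of 1 SD (n = 3). IFIT1, IFIT2, IFIT3 and TXNIP are lowest under CSC, while SCD is lowest under BaP.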

How the data were processed

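UMI counts per gene were read from the deposited tables, 1 per well. The authors had received them quantified: BWA (version 0.7.10 per the labels) placed reads on RefSeq transcripts of hg19, UMIs matching a single gene were counted, and the deposited counts were not normalized. Groups and replicate numbers came from the sample titles, and the study called the wells of a condition biological replicates. In R 4.3.3, limma 3.58.1 with voom and TMM factors (edgeR 4.0.16) was fitted to the compared wells alone and to genes whose mean count was above 1, two-sided, with Benjamini-Hochberg adjustment and a threshold of 0.05; the responses of FAT1 and GFP cells were compared by an interaction term. edgeR's quasi-likelihood test and DESeq2 1.42.0 were alternatives. Levels are TMM-scaled CPM. Counts were also simulated with 200 genes changed. All genes were given the same preset dispersion, not estimated from these wells, so the rates hold for that setting alone. At 1 log2 unit the CSC against DMSO fit recovered 27% with 6.9% false calls, and the interaction 11.5% with 11.5% false. At 2 log2 units these fits recovered 62% and 51.5%.

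The members and lists were chosen with earlier results of these data known. Named genes were FAT1, CYP1B1, NQO1, the called genes of smallest adjusted p whose wells did not overlap, called list members, and uncalled members of lists as values; ABCA1, MED24, ALDH1A3, DHRS3, AHR, AHRR, HMOX1, SRXN1 and the other genes outside that rule were picked after their values were seen. Gene positions came from a GENCODE annotation of hg19 and promoter sequence from RefSeq. Counting error alone is covered by the interval given for a ratio of counts. The value of 1 listed gene is not reported here.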

Additional observations from a re-analysis of the deposited data

Results flagged for a closer look

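Wells of FAT1 cells exposed to NNK, a tobacco nitrosamine (490 µM), entered no comparison other than the alternative fit over all 12 FAT1 wells, and in them both CYP1 genes stood above the DMSO wells. CYP1A1 was at 6.71, 7.16 and 7.59 CPM under NNK (mean 7.16) against 0 to 3.95 CPM under DMSO, from 9, 9 and 12 UMIs. CYP1B1 was at 20.1, 9.55 and 13.9 CPM (mean 14.5) against 5.28 to 6.31 CPM under DMSO. Both were far below the CSC wells, where the lowest values were 71.0 and 121 CPM. For TIPARP, looked at in the same way, not every NNK well lay above every DMSO well. Over all 11374 genes tested, the NNK wells lay beyond the DMSO wells in the direction of the CSC change for 14%. NNK wells lay in plate row H, and no test was made.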

How the results depend on the processing

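Between CSC and DMSO, 27 of the 52 calls held under all 14 alternatives, 20 of them higher and 7 lower, among them the AHR genes, FTL, FTH1, the IFIT genes, CAV1 and KRT19. The count was 34 by DESeq2 (33 shared) and 96 with the replicate block, and it ranged from 39 to 76 with 1 well left out. FAT1 turned to -0.01 without DMSO replicate 1. Same-numbered CSC and DMSO wells correlated at 0.0872, 0.0524 and 0.0224, none above 0.1, so the numbers were not taken as pairs. Each CSC well still correlated best with the DMSO well of its own number. DMSO replicate 3 correlated best with CSC replicate 2 (0.0367). Same-numbered CSC and BaP wells correlated at 0.101, 0.0588 and -0.00194, the first above 0.1, and were also fitted unpaired. These values do not settle whether the numbers mark pairs. For the difference between FAT1 and GFP cells, the replicate block gave 3 calls (FTL, adjusted p = 0.00853; MALAT1, 0.00513; MT2A, 0.000984) and HcRed cells as control 3, and leaving out 1 well gave 0 to 7, with 7 when FAT1 CSC replicate 1 was absent. With HcRed cells the differences of MT2A and NQO1 turned to -0.01 and 0.26. Between CSC and BaP the count was 28 with no filter, 37 with a mean count above 10, 110 with the block, and 10 to 38 with 1 well left out (28 without CSC replicate 1, 38 without CSC replicate 2, 10 without BaP replicate 3). The cause of these shifts was not tested. At this depth, low genes such as FAT1, AHRR and HMOX1 could not be resolved.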
